A study of Mus musculus with 6 samples.

Results

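Auts2, Lpp and Ntm are long mouse genes, and in the cerebellum of rCGG mice each carried a series of regions of 5-hydroxymethylcytosine (5hmC) that the authors listed as specific to rCGG mice rather than to their wildtype littermates. The members described here are the differentially hydroxymethylated regions whose midpoints lie in 3 genomic windows, 1 per gene. The window of Auts2 spans 1107 kb (chromosome 5, 131913000-133020000), that of Lpp 600.0 kb (chromosome 16, 24393000-24993000) and that of Ntm 971 kb (chromosome 9, 28800000-29771000), all in mm9 and counted from 1. They hold 34 of the 12969 regions listed for the whole genome, 27 of them specific to rCGG and 7 specific to wildtype. The windows were chosen by the lists themselves, on the number and order of the regions called specific to rCGG in each. Counts, densities and spacing below are therefore a description, and no test of them is given. The same holds for width and score, which come from the same contrast.

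The groups were 3 wildtype littermates and 3 rCGG mice, whose genotype is labelled FXTAS (fragile X-associated tremor/ataxia syndrome, a late-onset movement disorder caused by moderately long CGG repeats in the gene FMR1). All 6 animals were of strain C57BL/6 and 16 weeks old, and genomic DNA came from whole cerebellum. The labels name neither the promoter nor the cell type in which the repeat is expressed, and no sex. 5hmC-bearing fragments were captured through an attached biotin and sequenced. The lists give no value per animal and no depth, so the spread between mice cannot be seen. They hold no measure by which the labelled tissue could be checked. In bulk tissue a change in the mix of cells and a change in 5hmC per cell cannot be told apart. The exact 95% intervals below cover counting error only, and neighbouring regions are not independent of each other.

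5hmC is made from 5-methylcytosine by the TET enzymes. It is abundant in neurons, where it accumulates in the bodies of transcribed genes more than at their promoters. AUTS2 is a nuclear protein that works with Polycomb group proteins in the regulation of neuronal genes and also acts on the cytoskeleton in outgrowing neurites; disruption of the human gene is linked to intellectual disability and autism. LPP is a LIM domain protein of the zyxin family, found at focal adhesions and able to shuttle to the nucleus. Neurotrimin, the product of Ntm, is a cell adhesion molecule of the IgLON family, anchored in the neuronal membrane by a lipid. Auts2 and Ntm are transcribed from high towards low coordinates and Lpp from low towards high.

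No sequence of mm9 was used here, so the bases of the regions are not shown, and whether a region lies in an exon or an intron was not analysed. In the RefSeq annotation of GRCm38.p6, used only for names and gene order, no other protein-coding gene lies within any of the 3 genes. Lpp holds the gene of the microRNA miR-28a and 4 other noncoding genes or pseudogenes (Gm24440, Morf4l1-ps1, Gm22672 and Gm52245), Ntm holds the long noncoding RNAs Gm15520 and Gm15521, and Auts2 holds 4930563F08Rik. The mature forms of miR-28a are shown because the microRNA lies within the gene that had rCGG-specific regions alone. They are given 5′ to 3′ from RefSeq, with the seed, bases 2 to 8, in capitals.
mmu-miR-28a-5p: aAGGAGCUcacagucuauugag
mmu-miR-28a-3p: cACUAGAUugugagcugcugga

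Of the 3 genes, 2 have an entry among the RefSeq promoter sequences (Lpp and Ntm). That of the outermost start of Lpp (GRCm38.p6, plus strand, 250 bases before to 50 after the start) is shown because it marks the start of the gene, and no region of either list lay near that edge of the window. CpG dinucleotides, the sites at which methylated and hydroxymethylated cytosine mostly occur, are in capitals.
Lpp promoter: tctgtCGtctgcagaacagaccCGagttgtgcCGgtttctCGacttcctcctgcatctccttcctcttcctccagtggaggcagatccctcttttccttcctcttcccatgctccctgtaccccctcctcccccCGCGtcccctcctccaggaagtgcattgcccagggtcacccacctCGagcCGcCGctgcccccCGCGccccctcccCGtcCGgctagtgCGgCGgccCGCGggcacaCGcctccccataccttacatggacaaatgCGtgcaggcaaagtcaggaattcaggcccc
The motif CG, which reads the same on both strands, occurs 19 times in these 300.0 bases, against a median of 7 over 32851 promoters of that length, of which 94.6% hold it at least once. Of those promoters 71.9% hold it fewer than 19 times, so the count is not exceptional. The edge of the Lpp window on this side lay 83.9 kb from the midpoint of the nearest region.

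Each window held 9 rCGG-specific regions. Beside them lay 4 wildtype-specific regions in Auts2, 0 in Lpp and 3 in Ntm. Among all listed regions 33.2% were rCGG-specific. Outside the windows the share was 30.0% on chromosome 5, 40.1% on chromosome 16 and 30.9% on chromosome 9. Within them it was 69.2% for Auts2 (exact binomial interval 38.6% to 90.9%, n = 13 regions), 100.0% for Lpp (66.4% to 100.0%, n = 9) and 75% for Ntm (42.8% to 94.5%, n = 12). The windows were chosen for this excess, and nothing is read from it beyond the counts.

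The excess lay in the density of rCGG-specific regions. In the Auts2 window that density was 8.13 per Mb (exact Poisson interval 3.72 to 15.4), against 1.83 per Mb on the rest of chromosome 5, a ratio of 4.44 (exact interval 2.01 to 8.55). The Lpp window had 15 per Mb (6.86 to 28.5) against 1.92 on the rest of chromosome 16, a ratio of 7.83 (3.52 to 15.2). The Ntm window had 9.27 per Mb (4.24 to 17.6) against 1.89 on the rest of chromosome 9, a ratio of 4.9 (2.21 to 9.47). Lpp was thus the densest, because the same number of regions fell into the shortest window, but the intervals of the 3 windows overlap.

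Wildtype-specific regions had densities nearer to those of their chromosomes in Auts2 and Ntm, and none was listed in Lpp. In Auts2 their density was 3.61 per Mb against 4.28 elsewhere on the chromosome, a ratio of 0.844 (0.229 to 2.17). In Ntm it was 3.09 per Mb against 4.23, a ratio of 0.731 (0.150 to 2.15). In Lpp it was 0 (exact Poisson interval up to 6.15 per Mb), against 2.86 per Mb on the rest of chromosome 16. The windows were chosen on these counts, and the intervals are no test of them.

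**Figure D1:**
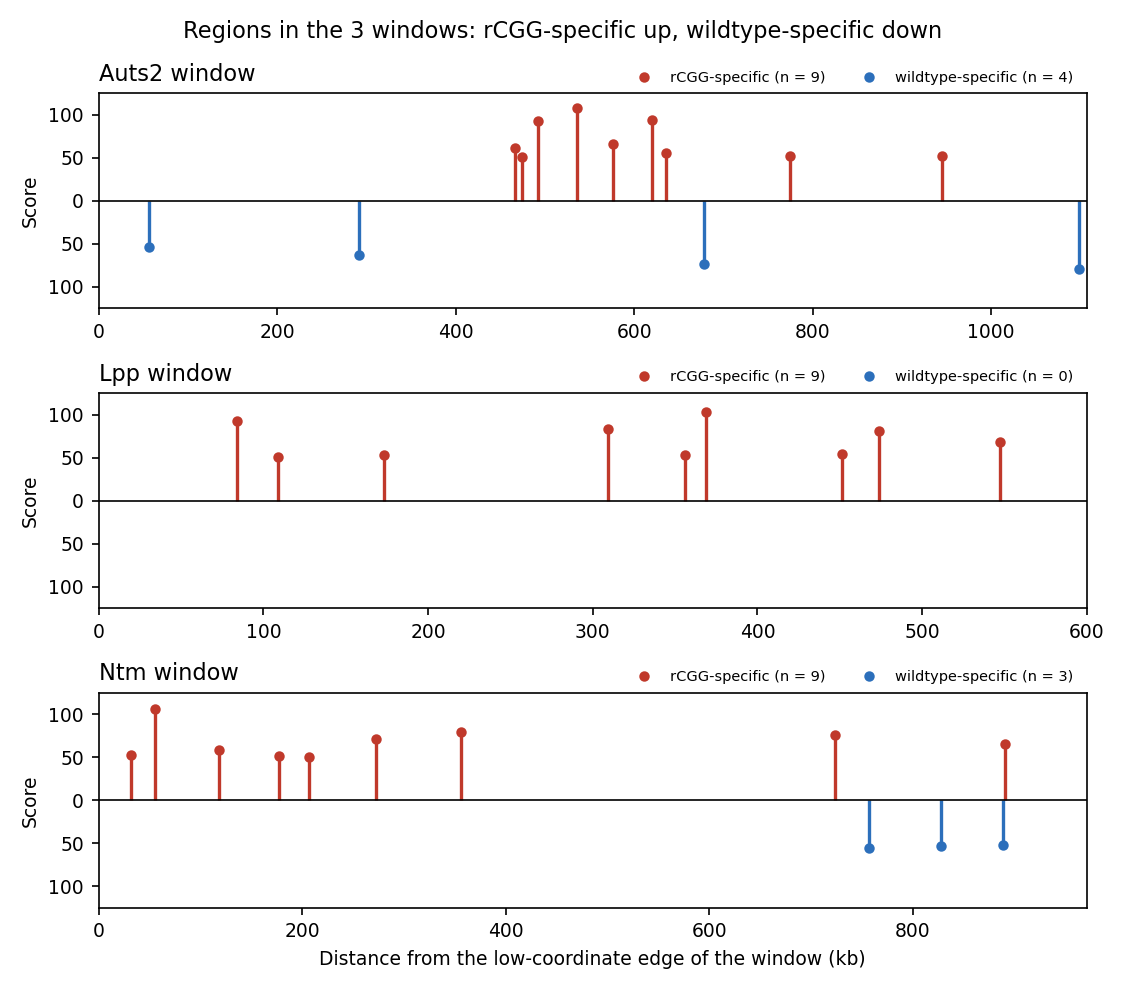
Position and score of the 34 regions along the 3 windows. The horizontal axis is the distance in kb of a region's midpoint from the low-coordinate edge of the window, and the vertical axis is the authors' score, drawn upwards for rCGG-specific and downwards for wildtype-specific regions; 7 rCGG-specific regions of Auts2 stand in 1 group, those of Lpp are spread along the window with no wildtype-specific region, and 7 of Ntm lie in the low-coordinate part.

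In Auts2, 7 of the 9 rCGG-specific regions formed a compact group of 170.3 kb in the middle of the window (132378880-132549204). From low to high coordinates they began with 132378880-132379603 (724 bp, score 61.41), 132386585-132387358 (774 bp, 51.65) and 132404292-132405261 (970 bp, 92.75). The score is the authors' own value for each region. Its scale is not stated, no region has a score under 50.00, and it is used only to order regions. The group continued with 132447964-132449697 (1734 bp, 108.16), the best-scored member of all 3 windows, and 132488250-132489926 (1677 bp, 66.03). It ended with 132532245-132532925 (681 bp, 93.62) and 132547489-132549204 (1716 bp, 55.71). The scores of 108.16, 93.62 and 92.75 ranked 3, 13 and 16 among the 278 rCGG-specific regions of chromosome 5, so the group held 3 regions near the top of the chromosome's list.

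The other 2 rCGG-specific regions of Auts2 stood apart, towards the start of the gene, at 132686513-132687692 (1180 bp, 52.46) and 132857418-132859315 (1898 bp, 52.03). Both had scores close to the minimum of the list, but the lowest score of an rCGG-specific region in this window, 51.65, was in the group. A wildtype-specific region at 132590379-132591245 (867 bp, score 73.07) separated them from the group and lay 41.2 kb from its last region. The remaining wildtype-specific regions lay at 131969192-131970478 (1287 bp, 53.07), at 132203369-132205027 (1659 bp, 62.65) and at 133009944-133013605 (3662 bp, 79.28). The last of these, the widest and best-scored of the 4, had its midpoint 8.23 kb from the window edge at which Auts2 starts. It was the closest to a start-side edge of all 34 regions and ranked 11 in width among the 633 wildtype-specific regions of chromosome 5. The nearest rCGG-specific region lay 150.6 kb from it. Both lists were thus present in Auts2, with the rCGG-specific group in the middle of the window and wildtype-specific regions on either side.

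In Lpp, 9 rCGG-specific regions were spread over 465.9 kb. The 3 nearest the start of the gene were the widest of the window, 24474677-24479113 (4437 bp, score 92.49), 24500610-24503716 (3107 bp, 50.40) and 24565335-24567314 (1980 bp, 53.21). Of the 188 rCGG-specific regions on chromosome 16 they ranked 1, 3 and 10 in width. The first is therefore the widest rCGG-specific region of its chromosome.

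The other 6 regions of Lpp had widths of 713 to 972 bp and lay in the part of the window away from the gene's start. They were 24701762-24702474 (score 83.38), 24748569-24749423 (52.74), 24761549-24762520 (103.64), 24843935-24844711 (54.74), 24866526-24867257 (80.61) and 24939739-24940620 (67.70). The score of 103.64 ranked 6 on chromosome 16, and 4 of the 9 regions of Lpp had a score of at least 75. High scores thus occurred in narrow and in wide regions of this gene.

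Lpp lay in a longer stretch without any wildtype-specific region. The run of successive rCGG-specific regions to which its 9 regions belong had 13 members and reached from 24237838 to 25820993, 1583 kb, with 4 members outside the window. Of 2310 such runs in the genome it had the most members, and runs were not ranked by their length in kb. The median on chromosome 16 was 1 region. The distance from a member of Lpp to the nearest wildtype-specific region was 495.9 kb at the least and 961 kb at the most, against a median of 109.2 kb for rCGG-specific regions elsewhere on the chromosome. All 9 distances run to the same wildtype-specific region, 23977280-23978786, so they describe 1 gap. The window was chosen on the order of its regions, which favours long distances. The 9 regions of Lpp all fall in the megabase 24000001-25000000, which held 10 rCGG-specific and 0 wildtype-specific regions. Stretches without a wildtype-specific region were common on this chromosome. Of 155 others as long as the window, laid side by side, 67 held 0, and 44 of these had no region of either list.

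In Ntm, 7 of the 9 rCGG-specific regions lay in the part of the window farthest from the start of the gene, within 325.7 kb (28830725-29156446). The first 3 were 28830725-28832462 (1738 bp, score 52.66), 28854247-28857437 (3191 bp, 106.69) and 28918031-28918986 (956 bp, 58.18). The second of them was the best-scored of Ntm, ranking 9 in score and 2 in width among the 235 rCGG-specific regions of chromosome 9. The next were 28976604-28978437 (1834 bp, 51.73) and 29006047-29008278 (2232 bp, 50.00), whose score is the minimum of the list. The last 2 of the group were 29072458-29073375 (918 bp, 71.51) and 29155303-29156446 (1144 bp, 79.79). After a gap of 366.9 kb without a region of either list followed 29523369-29524728 (1360 bp, 76.52).

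The 3 wildtype-specific regions of Ntm all lay towards the start of the gene, at 29556356-29556926 (571 bp, score 55.49), 29627758-29628575 (818 bp, 53.63) and 29688346-29689635 (1290 bp, 51.61). Their midpoints were 82.0 to 214.4 kb from the start-side edge of the window, where those of the 7 grouped rCGG-specific regions were 615.1 to 939 kb from it. The third was followed after 178 bp by the rCGG-specific region 29689814-29691318 (1505 bp, 66.00). Regions of opposite lists so close together were rare. Of the 4284 rCGG-specific regions outside the windows, 34 (0.794%) had a wildtype-specific region within 1 kb. The DNA had been sonicated to fragments of 100 to 500 bp, per the labels' protocols, so the distance between these 2 regions lies within the range of fragment lengths.

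The groups of 7 in Auts2 and Ntm are free of wildtype-specific regions by the way they were picked. The other 2 rCGG-specific regions of Auts2 lay between wildtype-specific ones, and those of Ntm on either side of its 3 wildtype-specific regions. The midpoints of rCGG-specific regions began 161.6 kb from the start-side edge in Auts2, 83.9 kb in Lpp and 80.4 kb in Ntm. On the start side of the window's centre lay 5 of 9 in Auts2, 3 of 9 in Lpp and 2 of 9 in Ntm. In Auts2 this split cut through the group of 7, whose midpoints lay at 42.6% to 57.9% of the window from the start-side edge. No lean to either side is therefore read from Auts2. In Lpp and Ntm most lay on the other side. Over the 3 windows 17 of 27 lay on the other side. Whether they favour a common part of the genes was not tested.

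Spacing within the windows was close. The 8 gaps between successive rCGG-specific regions of Auts2 had a median of 40.4 kb (6.98 to 169.7 kb), against 236.5 kb for 267 gaps elsewhere on chromosome 5. In Lpp the median was 53.9 kb (12.1 to 134.4 kb), against 231.6 kb for 177 gaps. In Ntm it was 62.4 kb (21.8 to 366.9 kb), against 259.0 kb for 224 gaps. Gaps under 100.0 kb made up 6 of 8, 7 of 8 and 6 of 8 in the windows, and 28.5%, 33.3% and 26.8% of those elsewhere on the 3 chromosomes. Even the shortest gap in a window was longer than any region in it. Together the rCGG-specific regions covered 11.4 kb or 1.03% of the Auts2 window, 14.5 kb or 2.41% of that of Lpp and 14.9 kb or 1.53% of that of Ntm.

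**Figure D2:**
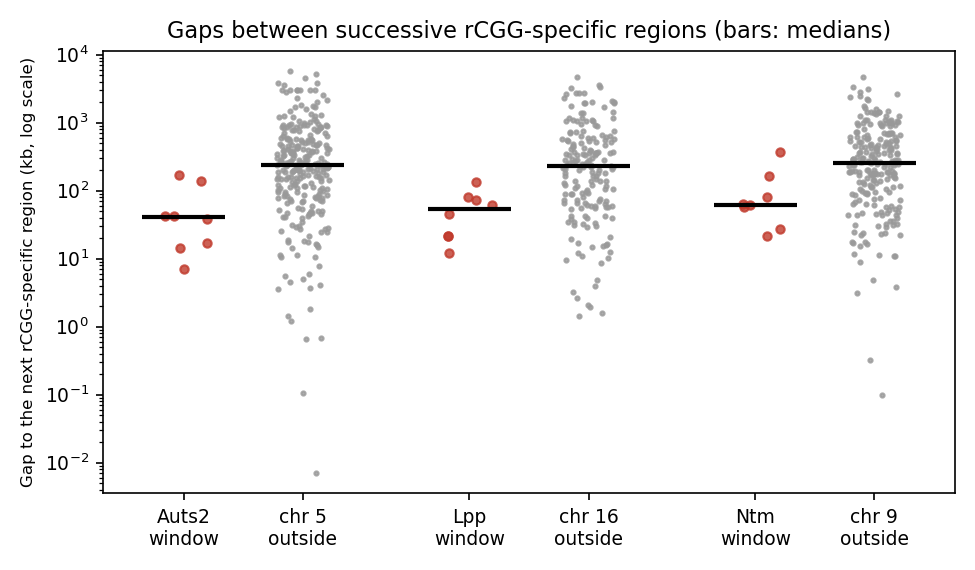
Gaps in kb, on a log axis, between successive rCGG-specific regions whose neighbours both lie in a window (red, 8 per window) or both outside it on the same chromosome (grey). Bars are medians, 40.4, 53.9 and 62.4 kb in the windows and 231.6 to 259.0 kb elsewhere; gaps as short as those in the windows also occur elsewhere.

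Short series as tight as those of the windows occurred elsewhere on the same chromosomes, and long ones less often. The shortest stretch with 3 successive rCGG-specific regions spanned 26.4 kb in Auts2, 60.8 kb in Lpp and 88.3 kb in Ntm, and 5, 10 and 8 stretches elsewhere on the respective chromosomes were as short. With 7 successive regions the shortest stretch spanned 170.3 kb in Auts2, 366.6 kb in Lpp and 325.7 kb in Ntm. Elsewhere 0 of 257 stretches of 7 on chromosome 5, 3 of 167 on chromosome 16 and 0 of 214 on chromosome 9 were as short. The shortest of them had 374 kb on chromosome 5, 250.4 kb on chromosome 16 and 535 kb on chromosome 9. The group of 7 in Auts2 was thus the tightest of its size on its chromosome, and so was that of Ntm, while chromosome 16 had tighter ones than that of Lpp. This depends on the size. With 5 successive regions, 1, 6 and 0 stretches elsewhere on chromosomes 5, 16 and 9 were as short as in the windows. With 9, the numbers were 0, 1 and 0. The shortest elsewhere then had 516.5 kb against 480.4 kb in Auts2, 442.1 kb against 465.9 kb in Lpp and 872.8 kb against 860.6 kb in Ntm.

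The order changed when runs were counted by members, with no wildtype-specific region allowed between them. The group of Auts2, with 7, was exceeded by a run of 8 on chromosome 5, where 4 of 147 runs had at least 7 members. The run of Ntm had 9 members, 8 of them in the window, and was among 3 of 121 on chromosome 9 with at least that many, which was the longest there. In the genome 42 runs had at least 7 members and 16 had at least 9. A run by this definition ends at any wildtype-specific region, and its number of members does not measure how close together they lie.

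The same number of rCGG-specific regions was uncommon but not unique at this scale. Stretches of the length of the window were laid side by side along each chromosome, starting at the window's edges. On chromosome 5, 2 of 131 other stretches held at least 9 rCGG-specific regions, 9 in each (21212900-22319900 and 30068908-31175908), with 3 and 8 wildtype-specific regions beside them. On chromosome 16 the other 155 stretches held at most 7, and on chromosome 9 the other 122 held at most 8 (13263984-14234984, with 0 wildtype-specific regions). The median was 2, 1 and 1. These maxima hold for this placement. Among stretches started every 100 kb that do not touch the window, the highest count was 10 on chromosome 5, 9 on chromosome 16 (2 of 923 stretches) and 9 on chromosome 9 (2 of 1176), so the counts of Lpp and Ntm were matched elsewhere. These 3 stretches are named because they came closest to the windows, a choice made after their values were seen. In the excess, with stretches laid side by side, of rCGG-specific over wildtype-specific regions, 9 in Lpp, 5 in Auts2 and 6 in Ntm, 0 stretches of chromosome 16, 1 of chromosome 5 and 1 of chromosome 9 reached as high. With starts every 100 kb, where stretches overlap, it was 0 of 923, 19 of 1447 and 13 of 1176. The highest excess was then 7 on chromosomes 16 and 5 and 9 on chromosome 9, above that of Auts2 and Ntm.

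**Figure D3:**
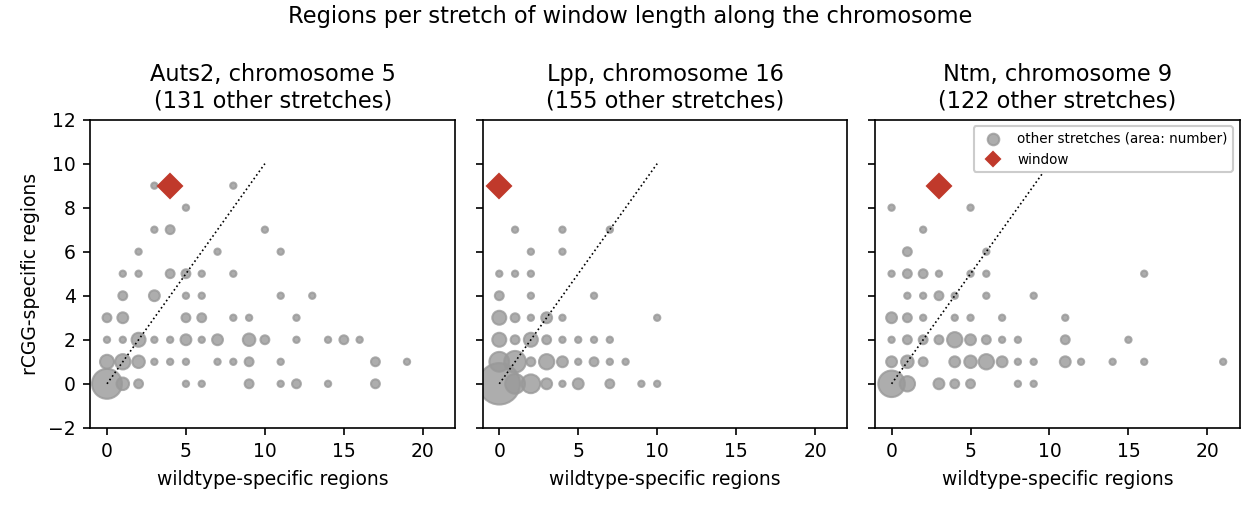
Number of rCGG-specific regions against that of wildtype-specific regions in stretches as long as the window, for the window (red diamond) and all others on its chromosome (grey, area in proportion to the number of stretches). The dotted line marks equal numbers; each window has 9 rCGG-specific regions, where the other stretches, laid side by side, reach 9 on chromosome 5, 7 on chromosome 16 and 8 on chromosome 9.

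Close to the windows the counts dropped. The stretches of the same length on either side of Lpp held 2 rCGG-specific regions each, with 2 wildtype-specific regions on the low side and 0 on the high side. Those beside Ntm held 1 on the low side, where the gene order places Opcml, another IgLON gene, and 2 on the high side, with 1 and 6 wildtype-specific regions. Those beside Auts2 held 5 on the low side, where Galnt17 follows in the gene order, and 2 on the high side, with 5 and 2 wildtype-specific regions. All 6 flanks thus held fewer rCGG-specific regions than the windows. The windows were chosen for their number of these regions, so lower counts beside them are no finding. No flank lay below the median of the other stretches of its chromosome, 2 for Auts2 and 1 for Lpp and Ntm. The run to which the 9 regions of Lpp belong had 13 members and went on past both edges. An end of the excess at the window limits is therefore not shown.

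The regions nearest the window limits differed from edge to edge. The edge of Auts2 at low coordinates had wildtype-specific regions 56.8 kb inside and 69.9 kb outside it (scores 53.07 and 71.97). At its high edge the wildtype-specific region with a score of 79.28 lay 8.23 kb inside, and the next region outside was rCGG-specific, at 365.5 kb (score 52.44). With each edge moved 50 kb inward, Auts2 kept its 9 rCGG-specific regions among 12 in all, and Ntm kept 8. Around Lpp the nearest regions outside were rCGG-specific on both sides, at 154.1 kb (66.96) and 94.7 kb (53.45), and those just inside lay 83.9 kb (92.49) and 52.8 kb (67.70) from the edges. Around Ntm the regions just inside were rCGG-specific, at 31.6 kb (52.66) and 80.4 kb (66.00). Outside, an rCGG-specific region followed at 547 kb on the low side (57.28) and a wildtype-specific region at 203.0 kb on the high side (54.70).

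Members were wider than the rest of their list, by different amounts in the 3 genes. The median width of rCGG-specific regions was 1180 bp in Auts2 (681 to 1898 bp), 882 bp in Lpp (713 to 4437 bp) and 1505 bp in Ntm (918 to 3191 bp). On the rest of chromosomes 5, 16 and 9 it was 864, 850.0 and 871.5 bp. In all, 12 of the 27 (44.4%) exceeded 1500 bp, against 11.9% of the 4284 other rCGG-specific regions, a limit chosen after the widths were seen. The contrast was smaller at a limit of 1 kb, which 15 of the 27 (55.6%) exceeded, against 29.3% of the others. Lpp differed least in its median, since 6 of its 9 regions had ordinary widths and 3 were wide. The 7 wildtype-specific regions of the windows had a median of 1287 bp, against 691 bp in the rest of their list, so greater width was shared by both lists there. The part of the peak caller's settings in these widths was not tested.

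High scores were more frequent among the rCGG-specific members than in the rest of the list. Of the 27, 10 (37.0%) had a score of at least 75, 3 in Auts2, 4 in Lpp and 3 in Ntm, against 16.6% of the other 4284. At least 100 was reached by 3 members (11.1%), 1 in each gene, against 3.57%. The median score was 66.00 against 59.35. In Auts2 the median, 61.41, was close to the 60.20 of the rest of chromosome 5. It was 67.70 against 60.05 for Lpp and 66.00 against 60.49 for Ntm. Scores at the low end were present as well, with 1 member at the list's minimum. The lower quartile of the rCGG-specific scores was 52.46 in Auts2, 53.21 in Lpp and 52.66 in Ntm. On the rest of the respective chromosomes it was 53.97, 53.86 and 55.11. In each window the lower quartile thus lay below that of the rest of the chromosome, so members were not better scored throughout. The wildtype-specific members had a median score of 55.49, against 62.38 in the rest of their list, and 1 of the 7 (14.3%) reached 75, against 25.0%. These are descriptions of few regions, and the relation between the scores of the 2 lists is unknown.

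**Figure D4:**
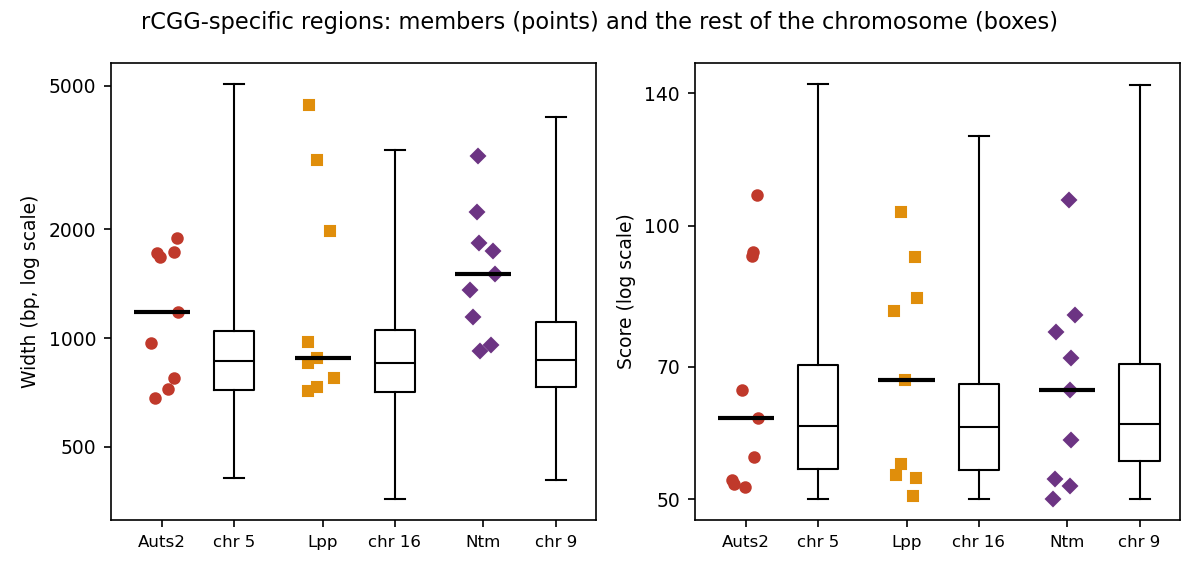
Width in bp and score, both on log axes, of the 9 rCGG-specific regions of each window (points, bars at their medians) beside those of the rest of the same chromosome (boxes from the lower to the upper quartile, line at the median, whiskers from the lowest to the highest value). Median widths are 1180, 882 and 1505 bp in the windows and 850.0 to 871.5 bp elsewhere. The lowest score of Ntm, 50.00, lies just below the 50.09 that is the lowest elsewhere on chromosome 9.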

How the data were processed

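The sources were 2 lists of regions deposited by the authors, 1 specific to wildtype and 1 to rCGG, with a score per region and no header. Per the submitters' processing notes, reads were aligned with Bowtie 0.12.9, HOMER was also used and the build was mm9. The peak names are those of MACS. Its settings, its control and any pooling of the 3 libraries per genotype were not stated in any source read.

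Starts were converted to count from 1. A region belonged to a window if its midpoint lay in it. The rest of a chromosome is the span from its first to its last region without the window. Gaps are the bases between successive regions of a list. Intervals are exact (95%). Every region of the windows is named, by rule. The members and all choices were made with earlier results of these data known. Counting was checked on simulated regions. Python 3.11.15, numpy 2.4.6, pandas 2.3.3 and scipy 1.17.1 were used. RefSeq tables of GRCm38.p6 gave gene names, gene order and sequences; no coordinates were converted, and relatives of the 3 genes were not analysed here because their mm9 positions were not at hand.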

Additional observations from a re-analysis of the deposited data

How the results depend on the processing

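The ratio of rCGG-specific density to the rest of the chromosome stayed above 1 under all 8 alternatives for each gene, from 3.70 to 8.65 in Auts2, 6.00 to 24.0 in Lpp and 4.06 to 8.79 in Ntm. The windows were chosen for their rCGG-specific regions and every alternative reuses the same lists. A ratio above 1 is therefore no independent support. With scores of at least 60 each window kept 5 rCGG-specific regions, and with scores of at least 75 it kept 3 in Auts2, 4 in Lpp and 3 in Ntm; fewer regions enter by construction. At 75 the ratio was 8.65 in Auts2 and 24.0 in Lpp. The share in Ntm rose to 100.0% at both thresholds. Moving the window edges, counting any overlap and merging regions closer than 10 kb left count and share within 1.5 times or the exact interval. Windows started every 100 kb, added after seeing the data, and stretches laid from other starting points left the share of stretches with at least 9 rCGG-specific regions at or below 1.38%, but with starts every 100 kb 2 stretches each on chromosomes 16 and 9 held 9, where stretches laid side by side held at most 7 and 8. No paired analysis was possible because each list is 1 result for a whole genotype, and for that reason no animal could be left out. Unknown depth limits every comparison of the lists.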
